A study of Mus musculus with 18 samples.

Results

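The data compared 2 sets of Sox2-bearing cells from E7.5 mouse embryos: cells with at least 1 Otx2 transcript and no Hoxb1 transcript (the Otx2 gate) and cells with at least 1 Hoxb1 transcript and no Otx2 transcript (the Hoxb1 gate). Both gates also required at least 2000 nuclear transcripts per cell, at least 1 Sox2 transcript and none of Mesp1 or Foxa2, which mark mesoderm and endoderm. Of 972 cells of that depth in the series, 429 came from E7.5, and 84 of these fell in a gate: 68 in the Otx2 gate and 16 in the Hoxb1 gate. A further 27 Sox2-bearing cells held both genes and 18 held neither. Because counts of these 5 genes chose the cells, their values are described without a test.

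The embryos were C57BL/6 wild type, with no treatment. At E7.5 they were cut below the chorion, so that extraembryonic mesoderm was kept, embryos of 1 or 2 litters were pooled, and dissociated cells were sorted into 12 libraries of 96 cell barcodes. At E6.75, used here for reference only, cells were picked by hand from embryos without their extraembryonic part, in 6 libraries. Each library was a sample of 1 pool, the embryo of origin of a cell was not known, and p-values therefore measure the spread between libraries, which may be technical.

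Otx2 encodes a homeodomain transcription factor of the epiblast that becomes restricted to the anterior ectoderm, the source of forebrain and midbrain. Hoxb1 belongs to the 3' end of the Hoxb cluster, which is switched on early in the posterior epiblast and primitive streak and later marks a hindbrain segment. Sox2 is kept in ectoderm with neural potential, and a posterior population that holds Sox2 together with T feeds both spinal cord and paraxial mesoderm. In the GRCm38 annotation, Otx2 lies on chromosome 14 at 48657677 to 48673819 (minus strand) and Hoxb1 on chromosome 11 at 96365752 to 96368256 (plus strand).

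The gates were unequal in how far their cells lay from the threshold. In the Otx2 gate, Otx2 ranged from 1 to 48 transcripts per cell with a median of 13, and 7 of 68 cells held a single transcript. In the Hoxb1 gate, Hoxb1 ranged from 1 to 56 with a median of 8, and 3 of 16 cells held a single transcript. The cells with both genes had a median of 8 Otx2 transcripts but of 1 Hoxb1 transcript, with 20 of 27 at 1. Sox2 had a median of 6 transcripts in the Otx2 gate and 2 in the Hoxb1 gate, where 6 of 16 cells held 1. A transcript of Otx2 was also present in 36.4% of 66 E7.5 cells with Hand1 and Foxf1 and no Sox2. These cells, with a lateral and extraembryonic mesoderm signature, were pooled over libraries and had a median depth of 32725 transcripts. The Otx2 gate had a median depth of 31532, and its summed Otx2 level was 450 CPM against 27.1 CPM in those mesoderm cells. After thinning to 2000 transcripts, 61.8% of Otx2-gate cells and 6.06% of the mesoderm cells held Otx2.

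Only replicates 3 and 4 had at least 3 cells in each gate. Replicate 3 gave 18 Otx2-gate and 3 Hoxb1-gate cells with 561929 and 68705 summed transcripts, and replicate 4 gave 28 and 4 cells with 696350 and 106298. These 53 cells entered the comparison, and no barcode number was shared between the libraries. A further 6 libraries (replicates 1, 2, 6, 7, 10 and 12) had 1 or 2 cells in at least 1 gate, and they were used as a separate look at the same genes. Median depth per cell was higher in the Otx2 gate in both replicates (32676 against 23724 and 26627 against 23449), a mean log2 difference (Otx2 gate minus Hoxb1 gate) of 0.32 ± 0.20 (SD, n = 2 libraries; exact sign-flip p = 0.5, the smallest that 2 libraries allow). Over 8 libraries the difference was -0.086 (exact p = 0.75). The mitochondrial share of transcripts was 10.6% against 13.4% in replicate 3 and 9.84% against 9.69% in replicate 4, and over 8 libraries it was 2.44 points lower in the Otx2 gate (lower in 5 of 8, exact p = 0.109).

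Genes of the primitive streak and caudal epiblast, among them T, Nkx1-2 and Tbx6, were higher in the Hoxb1 gate. Some epiblast genes, among them Dnmt3b, Utf1 and Slc7a3, were higher in the Otx2 gate of replicates 3 and 4. So were the anterior genes Six3 and Tcf7l1. Of 5410 genes tested by edgeR's quasi-likelihood F test with the library as a block, 133 (2.46%) passed an adjusted p of 0.05, and each differed in the same direction in both libraries. The Otx2 gate was higher for 55 (1.02% of those tested) and the Hoxb1 gate for 78 (1.44%), and 547 genes had an unadjusted p under 0.05. With 4 sums the fit left 1 residual degree of freedom, so its p-values rest on the spread pooled over genes. A gene could pass the filter on low counts through a single gate where it was high, so the counts and medians of tested list members given here are descriptions and support nothing about a list as a whole. DESeq2 on the same sums called 3 genes higher in the Otx2 gate (0.0529%), Dnmt3b, Cldn6 and Pim2, and 23 higher in the Hoxb1 gate (0.406%). Of these 26, 25 were among the edgeR calls. Log2 fold changes below are the Otx2 gate over the Hoxb1 gate, and CPM is the usual scaled share of a gene in the summed nuclear transcripts of a gate.

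T (Brachyury), the T-box factor of the streak and of neuromesodermal cells, separated the gates most. It stood at 17.8 CPM in the Otx2 gate and 1979 CPM in the Hoxb1 gate of replicate 3, and at 8.62 and 1477 CPM in replicate 4. The log2 fold change was -7.03 ± 0.28 (SE; edgeR adjusted p = 1.67e-129). All 16 Hoxb1-gate cells held T, with 2 to 77 transcripts and a median of 19. In the Otx2 gate 23 of 68 cells held it, 16 of them with 1 transcript, and the highest had 25. After every cell was thinned to 2000 transcripts, T remained in 12 of 16 Hoxb1-gate and 2 of 68 Otx2-gate cells. In replicates 3 and 4 the mean thinned share was 0% against 87.5%, a difference of -87.5 points (exact p = 0.5, the smallest possible), and over 8 libraries the difference was -42.7 points (exact p = 0.219).

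These values bear on the working name of the Hoxb1 gate as posterior ectoderm. The summed level of all 16 markers of primitive streak and nascent mesoderm was 1470 and 687 CPM in the Hoxb1 gate and 112.1 and 81.9 CPM in the Otx2 gate of replicates 3 and 4, and Msgn1 was at 0 in both gates. Of the 16, 8 were tested and 7 of them called higher in the Hoxb1 gate (median log2 fold change of the tested -4.09, against 0.02 over all genes), but the tested markers were low in the Otx2 gate and entered the test through the Hoxb1 gate, which fixes that direction. In 13 of 16 Hoxb1-gate cells at least 3 of the 16 markers were present, with a median of 5 per cell, against 24 of 68 Otx2-gate cells with a median of 2. Mixl1, a homeobox gene of the streak, was at 116 and 65.9 CPM in the Hoxb1 gate and at 0 and 1.44 CPM in the Otx2 gate. Tbx6, a T-box factor of presomitic mesoderm, was at 364 and 112.9 CPM against 8.90 and 0 CPM (log2 fold change -5.76 ± 0.61, adjusted p = 4.1e-18, edgeR). Alox15, a lipoxygenase gene, and Alcam, a cell adhesion gene, were also among the 12 largest differences on that side, with 22 transcripts against 1 for Alox15 and a log2 fold change of -4.61 for Alcam. The sets are therefore named by their rule, not as anterior and posterior ectoderm.

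**Figure D1:**
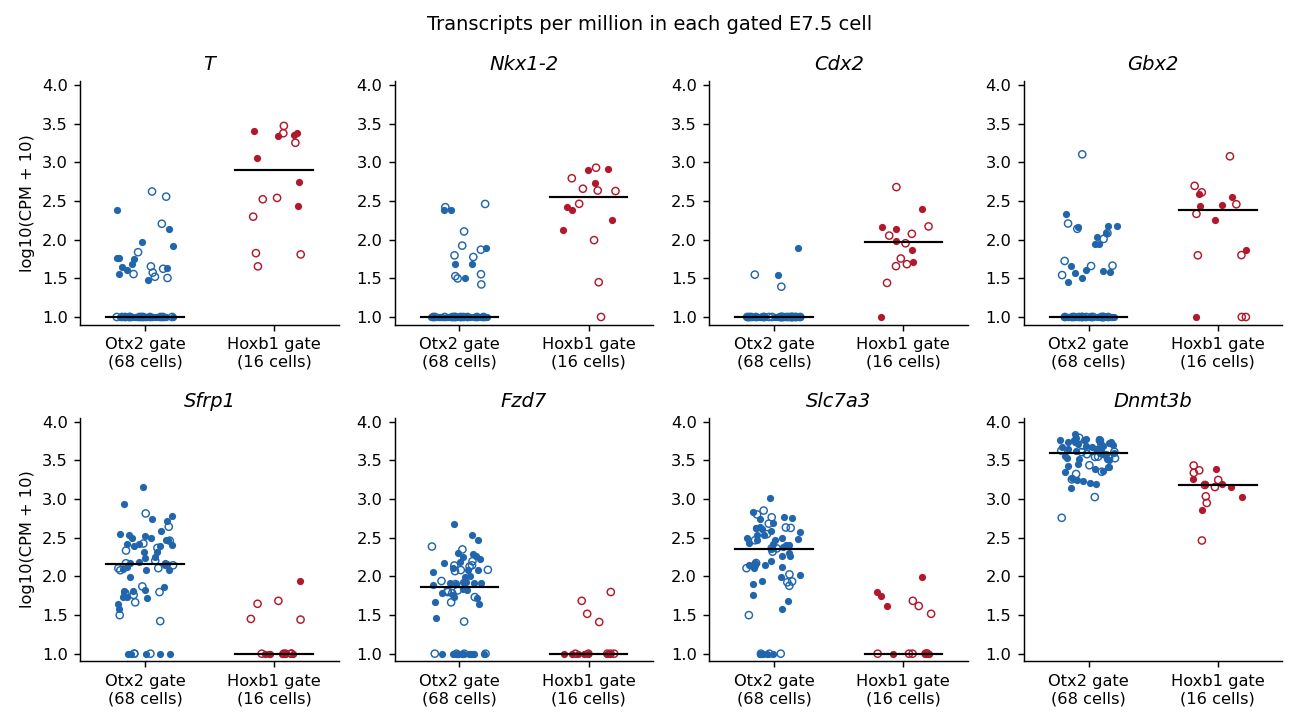
Each point is 1 gated E7.5 cell, with log10(CPM + 10) of the named gene on the vertical axis. Filled points are replicates 3 and 4, open points the other libraries, and bars the medians. All 16 Hoxb1-gate cells lie above the floor for T, and the gates overlap for every gene shown.

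Caudal genes had higher summed levels in the Hoxb1 gate. All 23 genes of the caudal epiblast and neuromesodermal list present in the files, T included, summed to 3755 and 4008 CPM there and to 304 and 179.5 CPM in the Otx2 gate of replicates 3 and 4. Of these, 11 were tested and 10 called higher in the Hoxb1 gate (median log2 fold change -4.37), but nearly all of the 11 entered the test through the Hoxb1 gate, which fixes that direction. Nkx1-2, a homeobox gene of the caudal lateral epiblast, stood at 160 and 583 CPM in the Hoxb1 gate and at 23.13 and 11.5 CPM in the Otx2 gate. Its log2 fold change was -4.37 ± 0.46 (adjusted p = 1.03e-18, edgeR), and 15 of 16 Hoxb1-gate cells held it, against 17 of 68. Cdx2, a caudal homeobox gene that regulates Hox clusters, was held by 15 of 16 against 4 of 68 cells and had 20 against 3 transcripts in the compared sums. Its ratio of Otx2 gate to Hoxb1 gate was 0.0209 (95% counting interval 0.00397 to 0.0703). Evx1, Gbx2, Greb1, Hes7, Sp5, T, Tbx6 and Wnt8a were the other caudal genes called. Cdx1, related to Cdx2, did not pass the filter on low counts in replicates 3 and 4 (0 transcripts in the Otx2 gate, 46 in the Hoxb1 gate). In the Hoxb1 gate, 1 of 3 cells of replicate 3 held it, with 2 transcripts, and all 4 cells of replicate 4, with 5 to 16. Over 8 libraries Cdx1 was tested and passed (log2 fold change -6.63, adjusted p = 0.00123, edgeR).

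Targets and feedback genes of WNT signalling, which patterns the posterior embryo through beta-catenin and TCF/LEF factors, were in part higher in the Hoxb1 gate. Of 8 tested members 5 were called on that side, against 1.44% of all tested genes. Their median log2 fold change was -2.38 over the 8, against 0.02 over all genes. Members low in the Otx2 gate, such as Sp5, Lef1 and Fzd10, entered the test through the Hoxb1 gate, which fixes that direction. Sp5, a zinc-finger gene activated by WNT, was at 218 and 245 CPM in the Hoxb1 gate and 14.2 and 8.62 CPM in the Otx2 gate (-4.34 ± 0.53, adjusted p = 1.06e-13, edgeR). Axin2, Lef1, Nkd1 and Fzd10 were the other 4, with log2 fold changes of -2.10, -2.66, -2.82 and -4.02. DESeq2 on replicates 3 and 4 called Sp5 and none of these 4. Over 8 libraries Sp5 (-2.19, adjusted p = 0.180), Axin2 (-1.17, 0.541) and Nkd1 (-1.45, 0.440) did not pass by edgeR, and Lef1 and Fzd10 were too low to be tested. The ligand Wnt8a was at 58.2 and 150.5 CPM against 23.13 and 0 CPM, a call not kept over 8 libraries (-2.21, adjusted p = 0.377, edgeR). With gates of at least 2 transcripts, Sp5, Nkd1 and Wnt8a passed. Wnt3a was not tested, with 9 transcripts in the Hoxb1 gate and 1 in the Otx2 gate. Receptors and antagonists split: of 10 tested, 3 were higher in the Otx2 gate (Fzd7, Sfrp1 and Tcf7l1) and 2 in the Hoxb1 gate (the secreted antagonist Frzb and the WNT enhancer Rspo3).

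Sequence upstream of genes that moved is shown for 4 cases, because WNT targets, Hoxb1 itself and the anterior gene Six3 mark the poles of the comparison. The runs are the 240 bases from 250 to 11 bases before the RefSeq start of each gene (GRCm38.p6, plus strand), and capitals mark matches to the motif searched on both strands. For Sp5 and T the motif was the TCF/LEF core CTTTGA (reverse complement TCAAAG), for Hoxb1 the HOX-PBX motif TGATNNAT, and for Six3 the OTX motif TAATCC. The windows are chr2:70474673-70474912 for Sp5, chr17:8434173-8434412 for T, chr11:96365508-96365747 for Hoxb1 and chr17:85620584-85620823 for Six3.
Sp5: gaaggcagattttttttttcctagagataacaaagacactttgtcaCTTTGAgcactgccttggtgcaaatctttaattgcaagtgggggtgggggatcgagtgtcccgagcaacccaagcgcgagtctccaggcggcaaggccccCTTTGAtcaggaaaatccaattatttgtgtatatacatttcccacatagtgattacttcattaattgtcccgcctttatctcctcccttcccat
T: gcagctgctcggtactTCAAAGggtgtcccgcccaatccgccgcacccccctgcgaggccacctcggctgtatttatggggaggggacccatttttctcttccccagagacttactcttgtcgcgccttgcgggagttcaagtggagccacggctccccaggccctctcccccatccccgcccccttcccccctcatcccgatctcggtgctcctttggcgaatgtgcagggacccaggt
Hoxb1: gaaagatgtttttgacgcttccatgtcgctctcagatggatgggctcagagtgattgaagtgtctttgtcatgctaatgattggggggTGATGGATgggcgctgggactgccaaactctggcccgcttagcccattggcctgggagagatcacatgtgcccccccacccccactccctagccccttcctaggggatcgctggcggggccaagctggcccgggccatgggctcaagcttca
Six3: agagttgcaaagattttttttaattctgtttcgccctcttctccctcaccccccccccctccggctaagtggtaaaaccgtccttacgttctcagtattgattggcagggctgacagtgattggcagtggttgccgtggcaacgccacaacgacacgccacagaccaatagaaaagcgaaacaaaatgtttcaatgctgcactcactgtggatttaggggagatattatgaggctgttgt
Sp5 held 2 TCF/LEF matches, T held 1 and Hoxb1 held 1 HOX-PBX match. The Six3 run held no OTX match, which says only that these letters are not in this window.

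Over all 32851 upstream windows of 250 bases, 13.8% held CTTTGA, 7.68% TGATNNAT, 6.25% TAATCC and 10.8% the CDX motif TTTATG. Windows were found for 52 of the 78 genes higher in the Hoxb1 gate (66 windows) and 43 of the 55 genes higher in the Otx2 gate (54 windows). CTTTGA occurred in 11 of the 66 windows (16.7%; among them Frzb, Lef1, Meis2, Sp5 and T) and in 6 of the 54 (11.1%). TTTATG occurred in 4.55% and 11.1%, TGATNNAT in 6.06% and 7.41%, and TAATCC in 4.55% and 1.85%. The OTX share of the Otx2-gate windows (1 of 54) and the CDX share of the Hoxb1-gate windows (3 of 66) were below those of all windows; no difference was tested, and the shares describe letters, not binding.

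Most Hox genes other than Hoxb1 were scarce. Of 34 members in the files, 24 had no transcript in either gate of replicates 3 and 4. Hoxb4 had 10 transcripts in the Hoxb1 gate and none in the Otx2 gate. It was too low for the edgeR test, while DESeq2 called it higher in the Hoxb1 gate (log2 fold change -7.54, adjusted p = 0.0444). Among Hox cofactors and readers, 2 of 5 tested were higher in the Hoxb1 gate: Meis2 (393 and 150.5 against 23.13 and 22.98 CPM; -3.40 ± 0.47) and Pknox2 (-3.00 ± 0.72).

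Retinoic acid genes included 2 of 6 tested that were higher in the Hoxb1 gate and none higher in the Otx2 gate. Aldh1a2, which makes retinoic acid in posterior mesoderm, was at 189.2 and 169.3 CPM against 1.78 and 15.8 CPM (-4.20 ± 0.56, adjusted p = 5.18e-11, edgeR), a call not kept over 8 libraries (-3.72, adjusted p = 0.108). In 1 of 3 cells of replicate 3 and 1 of 4 of replicate 4, however, lay 12 and 17 of the 31 transcripts. The degrading enzyme Cyp26a1 was not tested, with 2 of 175003 transcripts in the Hoxb1 gate and 22 of 1258279 in the Otx2 gate. Because these sums differ in size, the raw counts alone do not show a difference in level. Gbx2, which sets the posterior side of the midbrain-hindbrain boundary against Otx2, was at 160 and 273 CPM against 40.9 and 17.2 CPM (-2.99 ± 0.47, adjusted p = 5.4e-08, edgeR).

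Some epiblast genes were higher in the Otx2 gate. Of 22 epiblast and pluripotency genes, 12 were tested and 7 were higher in the Otx2 gate, against 1.02% of all tested genes. The RNA-binding gene Grsf1 was higher in the Hoxb1 gate. The median log2 fold change of the tested was 1.52, against 0.02 over all genes. Members such as Utf1, Pou3f1 and Eras, with 1 transcript each in the Hoxb1 gate, entered the test through the Otx2 gate, which fixes that direction. Dnmt3b, a de novo DNA methyltransferase of the epiblast, was at 4210.5 and 4236 CPM in the Otx2 gate and 1528 and 1402 CPM in the Hoxb1 gate (1.54 ± 0.14, adjusted p = 3.31e-25, edgeR). Every gated cell held it. Slc7a3, an amino acid transporter gene, was at 233 and 263 CPM against 14.6 and 47.04 CPM (2.90 ± 0.50). Utf1, a chromatin factor of pluripotent cells, had 294 transcripts against 1, a ratio of 40.9 (95% counting interval 7.28 to 1620). Pou3f1, a POU factor of epiblast and early neural ectoderm, had 172 against 1 (ratio 23.9, interval 4.24 to 950). Dnmt3a, L1td1 and Eras were the other 3. Pou5f1 and Nanog, core pluripotency factors, had log2 fold changes of -0.14 and -0.49 and adjusted p-values of 0.969 and 0.928 (edgeR).

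Utf1 was present in 85.3% of Otx2-gate cells, 37.5% of Hoxb1-gate cells and 4.55% of the mesoderm cells with Hand1 and Foxf1. Slc7a3 was present in 88.2%, 43.8% and 10.6% of the same sets. Median depths were 31532, 27735 and 32725 transcripts. After thinning to 2000 transcripts the Utf1 shares were 27.9%, 18.8% and 0%, and those of Slc7a3 were 33.8%, 6.25% and 0%.

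Anterior and neural genes were few above the test's floor. Of 18 anterior neural plate and forebrain genes, 4 were tested and 2 were higher in the Otx2 gate, Six3 and Tcf7l1. Six3, a homeobox gene of the forebrain and eye field, had 59 transcripts in the Otx2 gate and none in the Hoxb1 gate of replicates 3 and 4, at least 2.74-fold higher against a floor of 3 transcripts over the group (adjusted p = 0.0289, edgeR). It was present in 25 of 68 Otx2-gate cells, 8 of which also held T, and in 1 of 16 Hoxb1-gate cells. In the other 6 libraries Six3 had the direction of the fit in 2, with a median of 0 CPM in both gates. It was too low to be tested over 8 libraries. The median log2 fold change of the 4 was 1.34 with Six3 at its bound. Tcf7l1, a repressor of WNT targets needed for head formation, was at 290 and 369 CPM against 146 and 65.9 CPM (1.75 ± 0.37, adjusted p = 0.000199, edgeR). It also passed over 8 libraries (1.37, adjusted p = 0.0327, edgeR), while DESeq2 on replicates 3 and 4 did not call it (adjusted p = 0.631). Zic5 missed the edgeR threshold in replicates 3 and 4 (1.23, adjusted p = 0.0561) and passed over 8 libraries (1.41, adjusted p = 0.0107). Hesx1, an anterior homeobox gene, was not tested, with 11 of 1258279 transcripts in the Otx2 gate and none of 175003 in the Hoxb1 gate. At sums so unequal, these counts are too few to show a difference.

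Among 13 tested genes of early neural ectoderm, 2 were higher in the Otx2 gate and 1 in the Hoxb1 gate, with a median of -0.04. Sfrp1, a secreted WNT inhibitor, had 257 transcripts against 1 (ratio 35.7, interval 6.36 to 1417) and was held by 60 of 68 Otx2-gate and 5 of 16 Hoxb1-gate cells. Irx3, an Iroquois homeobox gene, had 144 against 2 transcripts (adjusted p = 0.00243, edgeR). DESeq2 on replicates 3 and 4 did not call Irx3 (adjusted p = 0.967), and it was too low to be tested over 8 libraries. In the other 6 libraries Irx3 had the direction of the fit in only 3. With gates of at least 2 transcripts it passed (2.14, adjusted p = 0.0439, edgeR), in a fit that includes replicates 3 and 4. Foxb1, a forkhead gene of the neural plate, was at 349 and 141.1 CPM in the Hoxb1 gate against 109 and 66.1 CPM (-1.41 ± 0.39). That call was not kept over 8 libraries (-1.04, adjusted p = 0.423, edgeR). Sox3, a SoxB1 relative of Sox2, had a log2 fold change of -0.03, with 14.6 and 179 CPM in the Hoxb1 gate and 110 and 91.9 CPM in the Otx2 gate.

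Fzd7, a WNT receptor of the epiblast, had the largest number of transcripts among 9 called genes with none in the Hoxb1 gate of replicates 3 and 4: 92 against 0, at least 4.27-fold higher. The others were Ephb3, Mcf2, Rnd2, Six3, Fgfr2, Magel2, Itm2a and Igfbp5, with bounds from 2.64-fold to 3.71-fold. All 9 entered the test through the Otx2 gate, which fixes that direction, and DESeq2 called none of them. In the other 6 libraries the direction of the fit was present for Fzd7 in 6 and for Fgfr2, Magel2 and Mcf2 in 5. It was present for Rnd2 in 4, for Ephb3, Igfbp5 and Itm2a in 3 and for Six3 in 2. Fgfr2 is the FGF receptor and Ephb3 the Eph receptor called in their lists, where the other 6 and 5 tested members were not called. The annotated span of Fgfr2 contains Nkx1-2 on the same strand, so strand alone would not separate reads in that overlap. Dnmt3b, Evx1, Irx3 and Six3 are among the genes that overlap a gene on the opposite strand. Reads from those opposite-strand neighbours could not be told apart without the strand setting, which is not given in the sources used here.

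Calls in the other pathways were spread over several lists. Fst, an activin and BMP antagonist of the streak, was at 917 and 461 CPM in the Hoxb1 gate against 104.995 and 45.95 CPM (-3.21 ± 0.29, adjusted p = 8.17e-25, edgeR), and Id1, a BMP target, was at 58.2 and 0 CPM against 122.8 and 134 CPM. Neither call held over the 8 libraries with a cell in each gate: Fst was at -1.61 (adjusted p = 0.268) and Id1 at 0.41 (0.942), by edgeR. In the 6 libraries other than replicates 3 and 4, Fst was at -0.70 (adjusted p = 0.862). In the Notch list, 3 of 8 tested (Dll1, Dll3 and Hes7, genes of the segmentation clock) were higher in the Hoxb1 gate. Of 11 adhesion genes, the tight junction genes Cldn6 and Cldn7 were higher in the Otx2 gate, and Cdh2, Pcdh19, Vim and Fn1 in the Hoxb1 gate. Over 8 libraries Cldn6 was at 0.89 (adjusted p = 0.587), Vim at -0.83 (0.552) and Fn1 at -1.30 (0.0877), by edgeR. None of the 6 Notch and adhesion calls tested there passed, while Cdh2, Cldn7 and Pcdh19 were too low to be tested. In the other 6 libraries the direction of the fit was present for Pcdh19 in 0, for Cdh2 in 1 and for Cldn7 in 4. Over 8 libraries Pcdh19 was higher in the Otx2 gate in 3 and in the Hoxb1 gate in 2. For Cdh2 these numbers were 4 and 3. The higher level of Pcdh19 and Cdh2 in the Hoxb1 gate was therefore a result of replicates 3 and 4. Cdh1, E-cadherin, was at 304 and 300.1 CPM in the Otx2 gate and 465.8 and 254.003 CPM in the Hoxb1 gate (-0.18, adjusted p = 0.956). None of 20 S phase, 19 G2/M and 16 glycolysis genes passed the test, with medians of 0.16, 0.05 and 0.14.

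**Figure D2:**
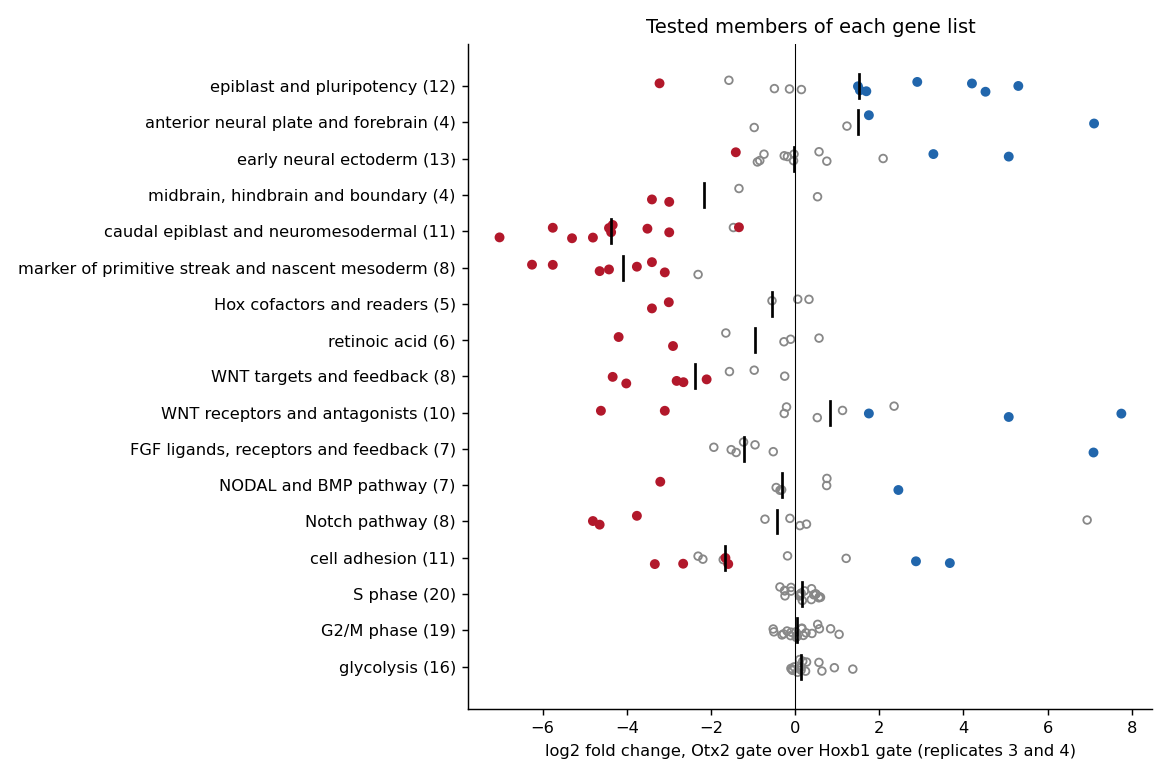
Log2 fold change (Otx2 gate over Hoxb1 gate, replicates 3 and 4) of every tested member of each gene list. Filled points passed the edgeR test, open grey points did not, and black bars are list medians, -4.37 for the caudal list and 1.52 for the epiblast list, over members that passed the filter. The largest positive values belong to genes with no transcript in the Hoxb1 gate and depend on the prior count.

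Markers of other cell types were present at varied levels, and their part in the results was not tested. Of 15 visceral endoderm markers, 7 were at 0 in both gates, including Afp, Amn and Apoa2, and 1 of 2 tested, Cited1, was higher in the Hoxb1 gate; the list summed to 160 and 150.8 CPM in the Otx2 gate and 233 and 357 CPM in the Hoxb1 gate. Of 15 definitive endoderm and axial mesoderm markers, 5 were at 0 and none of 2 tested passed, with sums of 767 and 827 CPM against 713 and 395 CPM. Of 14 blood and endothelial markers, 7 were at 0, and the summed level was at most 17.2 CPM in the Otx2 gate and 56.4 CPM in the Hoxb1 gate. The extraembryonic ectoderm markers Rhox5, Rhox6, Rhox9 and Bmp8b were at 0 in both gates of replicates 3 and 4, and the 13 markers of that list, Cdx2 included, summed to 32.0 and 34.5 CPM against 146 and 179 CPM.

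The 16 Hoxb1-gate cells were not alike. In replicates 10 and 12 the sole Hoxb1-gate cell held 1 Hoxb1 transcript, with 28 and 11 of Sox2, 3 and 2 of T, and 52 and 85 of Rhox5, an X-linked gene of extraembryonic ectoderm. Those 2 cells also held 25 and 26 Utf1 and 31 and 22 Pou3f1 transcripts, whereas the other 14 held at most 3 of each. No other Hoxb1-gate cell held Rhox5, and 1 of 68 Otx2-gate cells did. Among the other 14, T ranged from 5 to 77 transcripts. Tbx6 reached 20 and 21 transcripts in 2 cells, of replicates 3 and 1, that also held the highest Hoxb1 (38 and 56), while 6 of the 14 held none. The sole Otx2-gate cell of replicate 10 held 25 T and 15 Mixl1 transcripts, the highest of that gate.

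**Figure D3:**
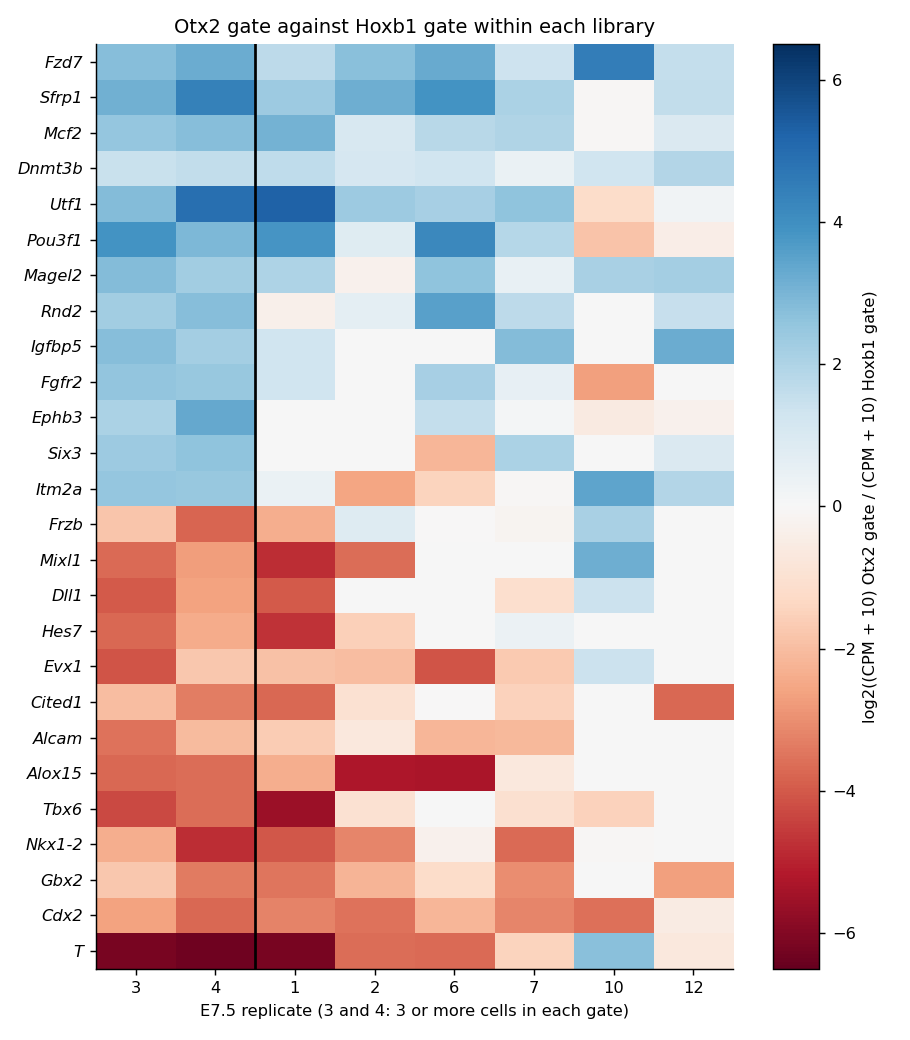
Colour gives the log2 ratio of (CPM + 10) in the Otx2 gate over the Hoxb1 gate within each E7.5 library, blue for higher in the Otx2 gate and red for higher in the Hoxb1 gate. Replicates 3 and 4 stand left of the line and the 6 libraries with fewer cells right of it. Fzd7 and Dnmt3b were blue in 8 of 8 libraries, while replicate 10 had the opposite sign for T, Utf1 and Pou3f1.

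Libraries that the rule left out gave fewer calls. With all 8 libraries that had a cell in each gate, 2565 genes were tested and 39 called (1.52%; 20 or 0.78% higher in the Otx2 gate and 19 or 0.741% in the Hoxb1 gate), and 32 of these were among the 133. Of the 93 earlier calls that could be tested there, 93 kept their direction. The 8 libraries include replicates 3 and 4, which gave those calls, so this agreement is not independent of them. T had a log2 fold change of -4.34 (adjusted p = 0.00986), Nkx1-2 of -3.75 (0.000129), Gbx2 of -3.04 (5.41e-05), Dnmt3b of 1.33 (1.06e-05), Slc7a3 of 3.45 (9.46e-05), Sfrp1 of 3.38 (0.000966) and Fzd7 of 3.12 (0.00662), all by edgeR. Utf1 (1.75, adjusted p = 0.132), Pou3f1 (1.05, 0.552), Mixl1 (-3.53, 0.347) and Sp5 (-2.19, 0.180) did not pass. Without replicates 3 and 4, the other 6 libraries gave 7 calls of 1992 tested (0.351%): Dnmt3b, Slc7a3 and Snhg14 higher in the Otx2 gate (0.151%), and Gbx2, Nkx1-2, Rhox5 and H2afy in the Hoxb1 gate (0.201%). Of 66 earlier calls tested in them, 60 kept their direction, and T stood at -2.43 (adjusted p = 0.292).

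A stricter gate of at least 2 transcripts of Otx2 or Hoxb1 removed the cells of replicates 10 and 12 and left 6 libraries (1, 2, 3, 4, 6 and 7). There 81 of 2830 genes passed (2.86%), 29 (1.02%) higher in the Otx2 gate and 52 (1.84%) in the Hoxb1 gate. Of the 81, 61 were among the 133, and every earlier call that could be tested there kept its direction. Replicates 3 and 4 are part of this fit too, so that agreement is not independent of the earlier calls. T was at -6.00 ± 0.42 (adjusted p = 5.76e-10), Cdx2 at -6.47 (0.000505), Sp5 at -3.02 (0.000669), Mixl1 at -6.02 (0.00541), Utf1 at 3.92 (1.76e-06), Pou3f1 at 3.21 (0.000323) and Sfrp1 at 4.10 (1.23e-05), by edgeR. Zic5 and Cdx1 passed in this fit, while Hes7 and Dll1 did not.

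Cells with both genes lay between the gates for most genes shown, with no test made. Summed T was 26.7 CPM in the Otx2 gate, 169.3 CPM in cells with both genes and 868 CPM in the Hoxb1 gate over all libraries. Nkx1-2 stood at 23.5, 101.1 and 346 CPM and Dnmt3b at 4060, 3106 and 1706 CPM. Sfrp1 (186.4, 179.4 and 12.004 CPM) and Six3 (41.0, 32.8 and 3.43 CPM) were at nearly the Otx2-gate level in cells with both. The 18 cells with neither gene had a median depth of 6048 transcripts, so that low counts of Otx2 and Hoxb1 cannot be told apart from shallow sampling in them.

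At E6.75, 257 cells met the Otx2 gate and none the Hoxb1 gate. Otx2 was at 490 to 571 CPM over the 6 libraries there. Utf1 (479 to 958 CPM), Pou3f1 (218 to 374 CPM) and Fgf5 (173.7 to 224 CPM) were above their summed E7.5 Otx2-gate levels of 249, 146 and 45.6 CPM. Six3 (0 to 4.31 CPM), Irx3 (0 to 5.20 CPM) and Gbx2 (0.392 to 2.31 CPM) were below their E7.5 Otx2-gate levels of 41.0, 94.8 and 30.8 CPM. Stage, dissection, and picking by hand against sorting changed together and cannot be told apart.

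**Figure D4:**
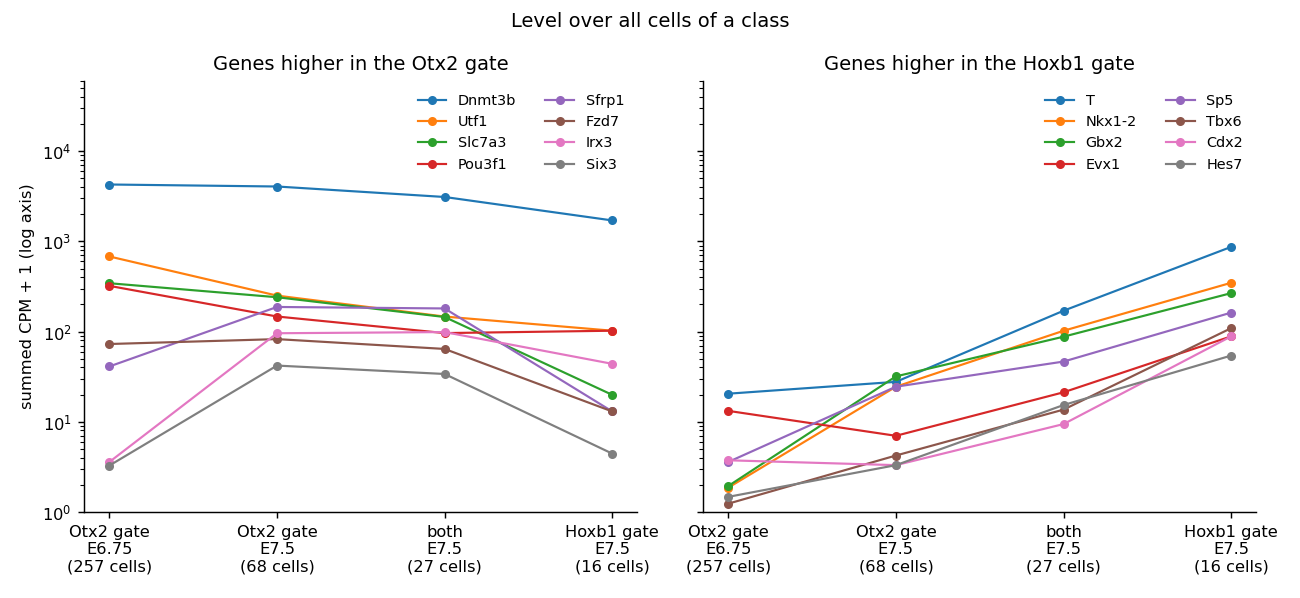
Summed CPM + 1 on a log axis for 8 genes higher in the Otx2 gate (left) and 8 higher in the Hoxb1 gate (right), in 4 sets of cells from E6.75 and E7.5. Lines join the values of a gene and are not a time course. T climbs from 26.7 CPM in the E7.5 Otx2 gate to 868 CPM in the Hoxb1 gate.

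The genes whose summed levels followed Otx2 most closely over the 16 gate sums of 8 libraries were Dnmt3b (Pearson's r = 0.922), Snhg14 (0.896), Slc7a3 (0.893), Klf6 (0.875) and Fzd7 (0.851). Among those that followed Hoxb1 most closely were Cdx1 (0.901), Grsf1 (0.896), Hes7 (0.887) and Tbx6 (0.883). The sums share their libraries, and the gates set Otx2 or Hoxb1 to 0 in 8 of the 16, so these values are descriptions only.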

How the data were processed

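Single cells were profiled by CEL-Seq2 and mCEL-Seq2, per the labels' protocols, which do not say which stage used which; each transcript carries a molecular tag (UMI). The submitters' processing notes name bcl2fastq 2.17.1.14 and BWA 0.6.2-r126, and the genome build is not given in the sources used here. The authors deposited expected counts per gene and barcode, which equal UMI numbers corrected for collisions among 4096 UMIs. They were rounded before count tests. Of 192 columns per library the 96 in use were kept. Libraries differed by more than sampling noise (the closest E7.5 libraries, replicates 3 and 4, had a chi-square over degrees of freedom of 2.01). Gate sums were tested with edgeR 4.0.16 in R 4.3.3 (TMM, filterByExpr, quasi-likelihood F test, library block, Benjamini-Hochberg over all tested genes without the 5 gate genes), with DESeq2 1.42.0 as an alternative. The block pairs gates cut from the same library. The fit was first tested on simulated data. Named genes were up to 12 per direction with an adjusted p under 0.05 and the largest change, without ribosomal and unnamed models. These had to share the direction of the fit in at least 1 of replicates 3 and 4, and the other 6 libraries played no part. Members of lists were named too. The members and lists were chosen with earlier results of these data known. No doublet caller was run. Replicate 5 had no usable cell. Results for some genes are not reported here.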

Additional observations from a re-analysis of the deposited data

Results flagged for a closer look

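In E7.5 replicate 10, 3.42% of transcripts lay in the 96 barcode columns that hold no cell, the highest value over the 8 libraries, which ranged from 0.0718% to 3.42%. Replicates 3 and 4 had 0.465% and 0.357%. These columns enter no comparison. Replicate 10 gave 1 cell to each gate, both described in the report, and the part of this signal in their values was not tested.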

How the results depend on the processing

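The 55 genes higher in the Otx2 gate became 33 with no replicate block, 30 in the libraries with at least 2 cells per gate, 20 in the 8 libraries with at least 1, 3 in the other 6 libraries, 29 with gates of at least 2 transcripts, 3 with DESeq2 and 20 with DESeq2 over 8 libraries. The 78 genes higher in the Hoxb1 gate became 65 with no replicate block, 19 in 8 libraries, 4 in the other 6, 52 with gates of at least 2 transcripts, 23 with DESeq2 and 23 with DESeq2 over 8 libraries. After thinning to 2000 transcripts, which left 397 genes to test, edgeR called 0 and 1. Leaving out 1 of the 8 libraries gave, for the Otx2 and Hoxb1 gates, 17 and 18 (replicate 1), 13 and 12 (replicate 2), 20 and 17 (replicate 3), 6 and 8 (replicate 4), 22 and 24 (replicate 6), 18 and 24 (replicate 7), 26 and 42 (replicate 10) and 15 and 17 (replicate 12). The cause was not tested.

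The depth difference reversed to -0.086 over 8 libraries and -0.22 in the other 6. The mitochondrial difference was 0.11 points with gates of at least 2 transcripts, and ranged from -2.76 to 0.15 points without replicate 4 or 3. The T share difference was -48.2 points without thinning over 8 libraries (exact p = 0.0156). Of the named genes that could be tested under an alternative, those that no longer passed were 7 of 24 with no replicate block, 9 of 18 with DESeq2, 15 of 23 with DESeq2 over 8 libraries, 6 of 12 with edgeR over 8 libraries, 8 of 8 in the other 6 libraries and 2 of 12 with gates of at least 2 transcripts. Alternatives with at least 5 cells per gate, without T-bearing cells, or with gates set on thinned cells left no library to compare. The alternatives with fewer cells per gate, the other 6 libraries and the stricter gates over several libraries were chosen after seeing the data.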
